A study of Mus musculus with 12 samples.

Results

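The clustered histone genes of the mouse were followed in hippocampal RNA from newborn pups of 3 genotypes. They were taken as every row of the deposited expression table whose symbol starts with Hist1h, Hist2h, Hist3h or Hist4h, with pseudogene symbols (-ps) left out. This gave 64 of 29454 genes: 6 genes for the linker histone H1, 18 for H2A, 15 for H2B, 12 for H3 and 13 for H4. Of these, 51 carry Hist1h symbols and lie on chromosome 13, 10 carry Hist2h symbols on chromosome 3, 2 carry Hist3h symbols on chromosome 11, and Hist4h4 lies on chromosome 6.

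Nucleosomes are built from the core histones H2A, H2B, H3 and H4, and H1 binds the DNA between them. The clustered genes are read mainly while a cell copies its DNA, and their messages typically end in a short stem-loop in place of a poly(A) tail. The stem-loop is bound by the protein made from Slbp and cut by a complex that includes the U7 small nuclear RNA. In the newborn hippocampus, progenitors of the dentate gyrus still divide, while most pyramidal neurons no longer do. Libraries made from total RNA after removal of ribosomal RNA, as these were, retain messages without a poly(A) tail.

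The study measured hippocampus from C57/BL6 littermate pups, labelled as postnatal day 4 (the series' design text gives day 0). WT pups, which gave 3 libraries, carried no transgene. CAMK pups, also with 3 libraries, carried only the CaMKIIα-tTA driver, in which the CaMKIIα promoter, active in forebrain neurons, controls the tetracycline transactivator. CX3CL1-ct pups, with 6 libraries, carried this driver together with Tg-CX3CL1-ct, which encodes the C-terminal portion of the chemokine CX3CL1, in a line backcrossed to C57BL/6J for 6 generations. The driver is thus present in both transgenic groups, and CX3CL1-ct differs from CAMK by the added transgene. Whether every library is a separate animal is not stated, so p-values measure the spread between these libraries, which may be technical.

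All levels are FPKM, fragments scaled by transcript length and library size. The transcript lengths used by the authors are not given, and rankings of genes and of histone types depend on them. The table holds no counts. A rough estimate, based on what 1 fragment is worth in FPKM for genes of 1 exon and an assumed fragment length of 180 bases, put the libraries at 9360000 to 14600000 fragments. The labels CX3CL1-ct 1, 2 and 3 stand for libraries closer to each other (median absolute log2 difference over genes 0.06 to 0.08) than any other pair of libraries of 1 group (0.09 to 0.19). They were kept as 3 libraries, and results that rest on them are also given with the 3 averaged into 1 or left out. Summed markers of other tissues varied between libraries: 6 striatal genes summed to 122 to 173 FPKM in WT 2, WT 3 and CX3CL1-ct 5 and to 19.3 to 31.6 in the other 9. The 6 markers of meninges and fibroblasts summed to 27.1 to 36.6 FPKM in WT, 38.7 to 45.2 in CAMK and 42 to 87.4 in CX3CL1-ct. The 8 markers of hippocampal neurons summed to 106 FPKM in CX3CL1-ct 5 and to 193 to 311 in the other 11. The 6 erythroid markers summed to 219 to 467, 196 to 288 and 236 to 431, and the 5 choroid plexus markers to 303 to 2312, 98.3 to 894 and 150 to 620. No gene of these lists was at 0 in every library, and the part of these tissues in the results on histone genes was not tested.

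The annotated 3′ ends were searched for this stem-loop. A search of the GENCODE M21 transcripts (GRCm38, the same build as the mm10 named in the submitters' notes) found the histone stem-loop in 45 of the 64 genes, 21 to 58 bases after the stop codon. In 22 of the 45 genes the M21 transcript runs over 150 bases past the stem-loop, among them Hist1h1e, Hist3h2ba, Hist1h3e and Hist1h4d. Of the 19 genes without a stem-loop, 13 have models that end fewer than 20 bases after the coding part. Sequence beyond these ends was not searched. Others have longer ends without a match, such as Hist2h2be (2192 bases after the coding part) and Hist1h2bc (742). The search accepted 1 fixed pattern of 16 bases, with GG followed by C or T bases at the start and CC at the end. Forms outside this pattern would be missed. Among the 19, 1 (Hist1h2al) has no coding part annotated. The member with the highest level of each type among those with a stem-loop is shown here, and Hist1h3c is added as a gene the comparisons turn on. The 16 bases of the stem-loop are in capitals, and the coordinates are those of the capitals.
Hist1h1e (H1, chr13:23621782-23621797, minus strand): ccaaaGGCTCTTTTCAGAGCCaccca
Hist2h2ac (H2A, chr3:96220418-96220433, minus strand): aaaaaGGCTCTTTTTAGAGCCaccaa
Hist3h2ba (H2B, chr11:58949349-58949364, plus strand): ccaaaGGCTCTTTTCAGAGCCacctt
Hist1h3e (H3, chr13:23561903-23561918, minus strand): aaaacGGCTCTTTTAAGAGCCacctc
Hist1h3c (H3, chr13:23745047-23745062, minus strand): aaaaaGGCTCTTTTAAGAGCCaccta
Hist1h4d (H4, chr13:23581950-23581965, plus strand): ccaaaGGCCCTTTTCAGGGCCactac
The first 5 bases of the stem divide the types. All 33 stem-loops of H1, H2A, H2B and H3 genes start with GGCTC, and none of the 12 of H4 genes does. Of the H4 stem-loops, 10 start with GGCCC and 2 with GGTCC. The most frequent form, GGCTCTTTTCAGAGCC, occurs in 25 genes, and the H4 form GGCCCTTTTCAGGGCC in 7.

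Near-identical copies limit what a single gene's level means. Fragments from stretches that 2 genes share can be assigned to either, and how the authors' counting divided them is not given in the sources used here. Sharing was scored in 100-base windows of each gene's coding part in M21. For Hist1h2al, which has no coding part annotated, the whole transcript was used. Of the 64 genes, 16 share under 20% of these windows with another gene and 20 share over 80%. Bases outside the coding part were not scored for the other genes. The score counts any M21 gene as a sharer, so Hist3h2a reached 100% through Trim17 alone and Hist2h2bb 45.4% through Gm42743 alone. For 35 genes the start and end in the deposited table equal those in M21. Sums over a histone type depend less on such a division than single genes do.

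H4 genes gave the largest share of the histone signal. Summed over its 13 genes, H4 took 41.7% to 47.0% of the histone FPKM of a library, H2B took 18.6% to 21.8%, H1 12.1% to 14.5%, H3 11.7% to 13.6% and H2A 8.87% to 10.5%. Hist1h4d (336 FPKM as the mean of all 12 libraries), Hist1h4c (217) and Hist1h4h (174) were the 3 highest members, and together they made up 27.4% to 33.1% of the histone signal. The highest H1 gene was Hist1h1e (115 FPKM), which encodes H1.4, followed by Hist1h1d (70.2) and Hist1h1c (50.2). Among H2B genes, Hist2h2bb (95.1 FPKM) led Hist3h2ba (80.5) and Hist1h2bb (57.2). The highest H3 genes, Hist1h3e (50.5), Hist2h3b (40.2) and Hist1h3f (36.6), encode the H3.2 protein. Hist1h2ak (50.7 FPKM), Hist2h2ac (48.1) and Hist3h2a (42.3) were the highest H2A genes. The Hist3h2a locus in the table overlaps Trim17 on the same strand, so its reads cannot be told apart from those of Trim17.

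**Figure D1:**
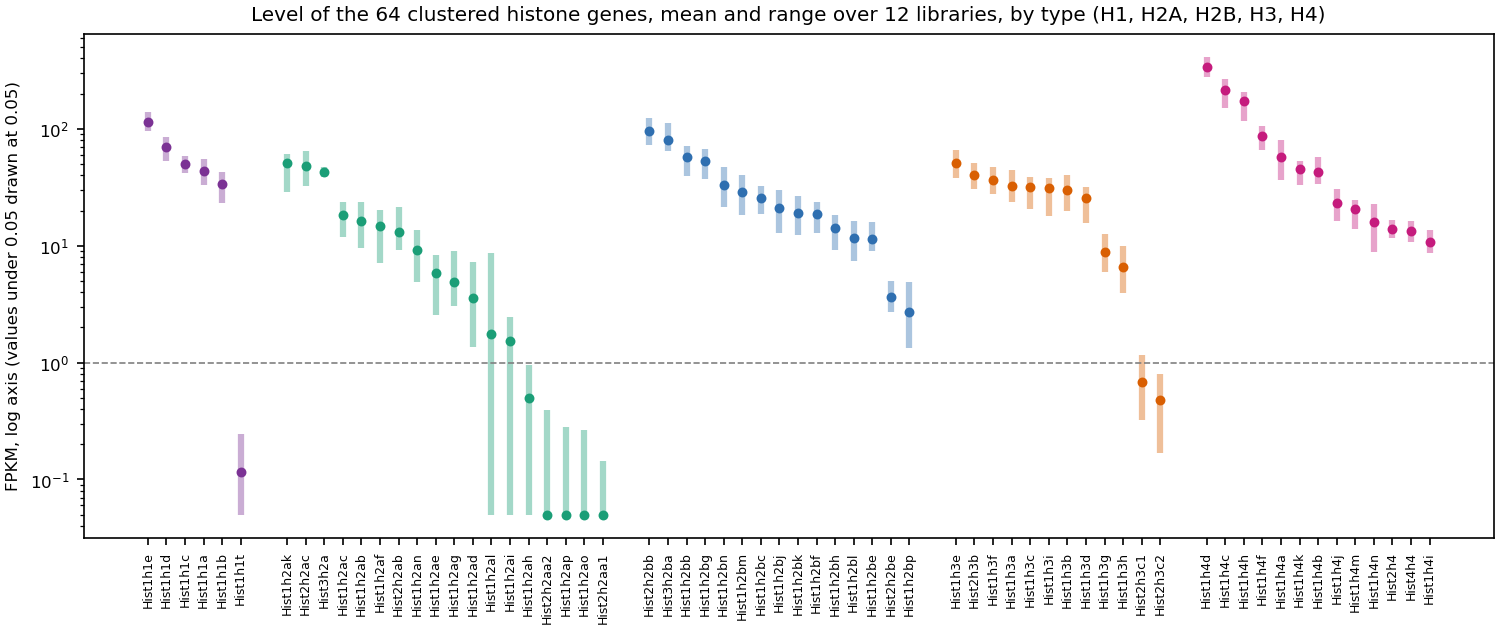
Level of each of the 64 clustered histone genes in FPKM on a log axis, grouped by type from left to right (H1, H2A, H2B, H3, H4) and ordered by mean. Points are means and bars the range over 12 libraries, the dashed line is 1 FPKM, and values under 0.05 are drawn at 0.05; Hist1h4d is highest at 336 FPKM, and 4 H2A genes lie at the lower edge.

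Of the 64 genes, 57 reached 1 FPKM in at least 3 libraries and were tested (5 H1, 13 H2A, 15 H2B, 11 H3, 13 H4). The 7 others were Hist1h1t, the H1 gene known from the testis (0 to 0.25 FPKM), and Hist1h2ah, Hist2h2aa1, Hist2h2aa2, Hist1h2ao, Hist1h2ap and Hist2h3c2, which share over 80% of their windows with other genes. By the number of libraries at 1 FPKM, just inside the filter were Hist2h3c1 (mean 0.68 FPKM) and Hist1h2al (1.76), and just outside it Hist1h2ah (0.50) and Hist2h3c2 (0.48).

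CAMK libraries held the least histone RNA. The 64 genes summed to 2518, 2345 and 2311 FPKM in the WT libraries, to 2325, 1768 and 2040 in the CAMK libraries, and to 2811, 2773, 2594, 2403, 2294 and 2278 in CX3CL1-ct 1 to 6. CAMK 2 and CAMK 3 lie below every library of the other 2 groups, while CAMK 1 lies within their range. The means were 2391 ± 111 (SD, n = 3) for WT, 2044 ± 279 (n = 3) for CAMK and 2526 ± 235 (n = 6) for CX3CL1-ct. Without CX3CL1-ct 1 to 3 the last mean was 2325. Beside this, the 8 markers of dividing cells summed to 46.5 to 55.4 FPKM in WT, 31.0 to 35.8 in CAMK and 35.9 to 45.6 in CX3CL1-ct, and their part in the result was not tested. The 6 markers of intermediate progenitors and neuroblasts summed to 245 to 261, 240 to 261 and 200 to 295 FPKM, and the 6 of radial glia and stem cells to 727 to 798, 628 to 828.9 and 650 to 935. In bulk tissue, fewer cells that make histones and less histone RNA in each such cell cannot be told apart.

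The mean CAMK sum was the lowest of the 3 groups in all 5 types, and separation of the libraries differed between types. H1 genes summed to 307 to 339 FPKM in WT, 257 to 282 in CAMK and 296 to 363 in CX3CL1-ct, so CAMK overlapped neither group. H3 sums separated in the same way, with 284 to 303, 208 to 273 and 276 to 346 FPKM. H2A sums were 242 to 251 in WT and 157 to 230 in CAMK, and H2B sums 503 to 523 and 350 to 448; CX3CL1-ct, at 217 to 272 and 425 to 574, overlapped CAMK for both types. H4 sums overlapped among all groups, with group means of 1018 (WT), 947 (CAMK) and 1133 FPKM for CX3CL1-ct (972 to 1106, 796 to 1093 and 1003 to 1264 FPKM). H4 took 45.0% to 47.0% of the histone signal in CAMK and 41.7% to 43.9% in WT.

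**Figure D2:**
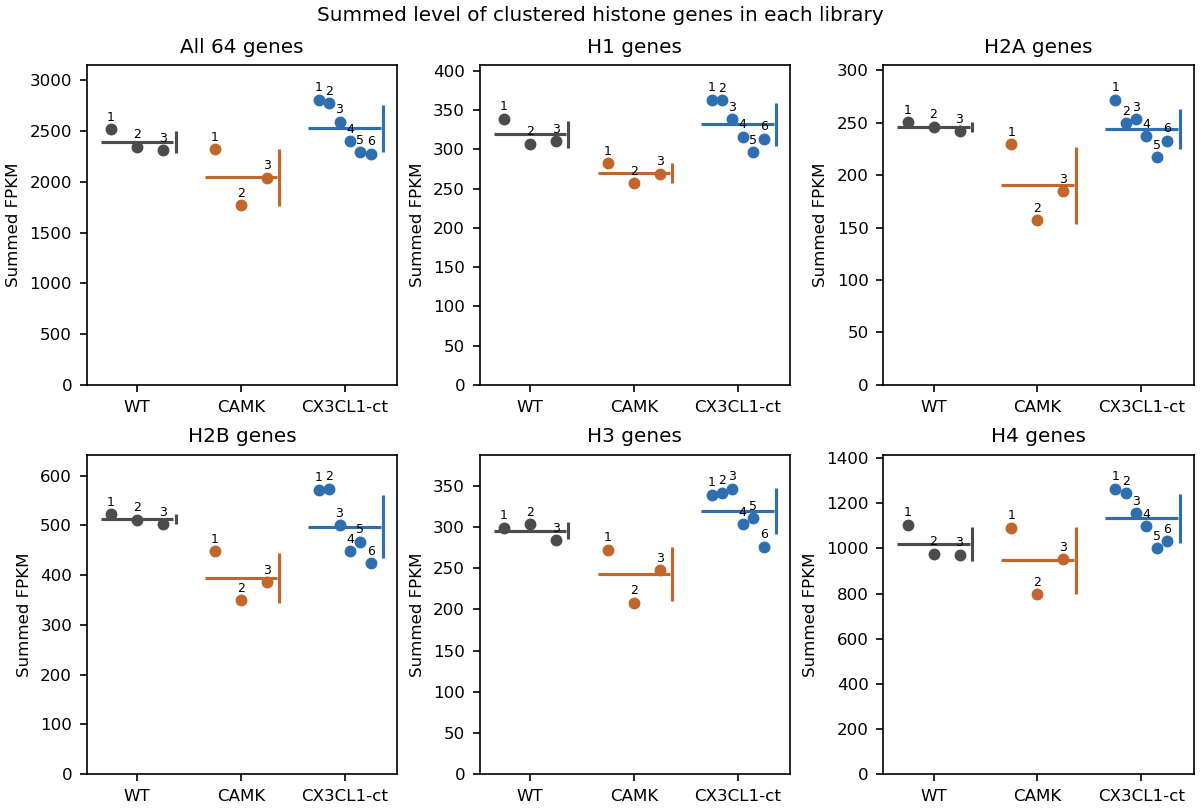
Summed FPKM of all 64 clustered histone genes and of each type, 1 point per library with its replicate number; horizontal lines are group means and vertical lines ± 1 SD (n = 3 WT, 3 CAMK, 6 CX3CL1-ct). The CAMK points are lowest for H1 and H3 without overlap, and overlap both other groups for H4.

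The comparison of CX3CL1-ct with CAMK asks what the transgene adds on top of the driver. Of the 57 histone genes tested, 56 were higher in CX3CL1-ct by the fitted difference, against 63.2% of all 16503 genes tested. Their median log2 difference of FPKM + 1 was 0.32, against 0.04 for all genes. None passed an adjusted p of 0.05 (limma, Benjamini-Hochberg over all genes tested), where 0.0606% of all genes did (0.0121% higher, 0.0485% lower). With an unadjusted p under 0.05, 33 were higher (5.33% of all genes) and 0 lower (1.04%). In 11 genes every CX3CL1-ct library stood above every CAMK library (2.78% of all genes), and the reverse was found in 0 (0.527%). The 1 gene not higher (36.8% of all genes) was Hist2h2ab (log2 difference -0.01, SE 0.23).

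The 3 histone genes with the smallest p in that comparison encode an H3, an H1 and an H2A. Hist1h3c, a gene for H3.2, measured 24.3, 20.7 and 25.2 FPKM in CAMK and 33.0, 36.5, 36.6, 30.6, 35.3 and 27.8 in CX3CL1-ct. The groups did not overlap, and the log2 difference was 0.49 (SE 0.09, adjusted p = 0.262). Hist1h1c, the gene for linker histone H1.2, measured 44.8, 41.8 and 43.1 FPKM in CAMK and 52.5, 58.7, 55.3, 52.9, 52.0 and 53.7 in CX3CL1-ct. The spread within each group was small and the groups did not overlap (log2 difference 0.32, SE 0.07, adjusted p = 0.379). Hist1h2ab measured 13.6, 9.56 and 11.6 FPKM in CAMK against 18.2, 23.5, 21.6, 16.2, 14.9 and 17.5 (log2 difference 0.64, SE 0.14, adjusted p = 0.499). Its highest CAMK library lay below its lowest CX3CL1-ct library, though all 3 genes missed the threshold.

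By type, the median log2 difference of CX3CL1-ct against CAMK was 0.32 for H1, 0.47 for H2A, 0.29 for H2B, 0.36 for H3 and 0.26 for H4. All 5 H1 genes tested had an unadjusted p under 0.05, and so had 7 of 13 H2A, 6 of 15 H2B, 9 of 11 H3 and 6 of 13 H4 genes. Hist1h1d, which encodes H1.3, had a mean of 59.1 ± 5.04 FPKM (SD, n = 3) in CAMK and 74.4 ± 7.62 (n = 6) in CX3CL1-ct, a log2 difference of 0.32 (SE 0.08, adjusted p = 0.725). Hist1h2ak gave 0.61 (SE 0.14), Hist1h2bl 0.58 (SE 0.14), Hist1h2bb 0.44 (SE 0.11), Hist1h3e 0.47 (SE 0.11), Hist1h4h 0.38 (SE 0.11) and Hist1h4m 0.37 (SE 0.10), with adjusted p from 0.632 to 0.725. Hist1h4d, the highest member, measured 362, 280 and 303 FPKM in CAMK and 415, 380, 362, 346, 319 and 320 in CX3CL1-ct. Its groups overlapped, with a log2 difference of 0.18 (SE 0.10, adjusted p = 0.780).

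The counts depended on single libraries. CAMK 2 was the lowest of all 12 libraries in 36 of the 57 genes, and CX3CL1-ct 1 the highest in 18. The count with an unadjusted p under 0.05 fell from 33 to 16 without CAMK 2, to 20 with CX3CL1-ct 1 to 3 averaged and to 13 with these left out. Of all 16503 genes, 879 met this and were higher in the fit of all libraries, and 495, 454 and 355 in the 3 others. Those lower were 172 in the fit of all libraries and 172, 91 and 81 in the others, with 0 histone genes among them. The number of histone genes above 0 was 56, 55 and 49 in the same 3 fits, against 57.9%, 65.8% and 66.9% of all genes. Their median log2 difference was 0.24, 0.26 and 0.20, and the median of all genes was 0.02 without CAMK 2.

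**Figure D3:**
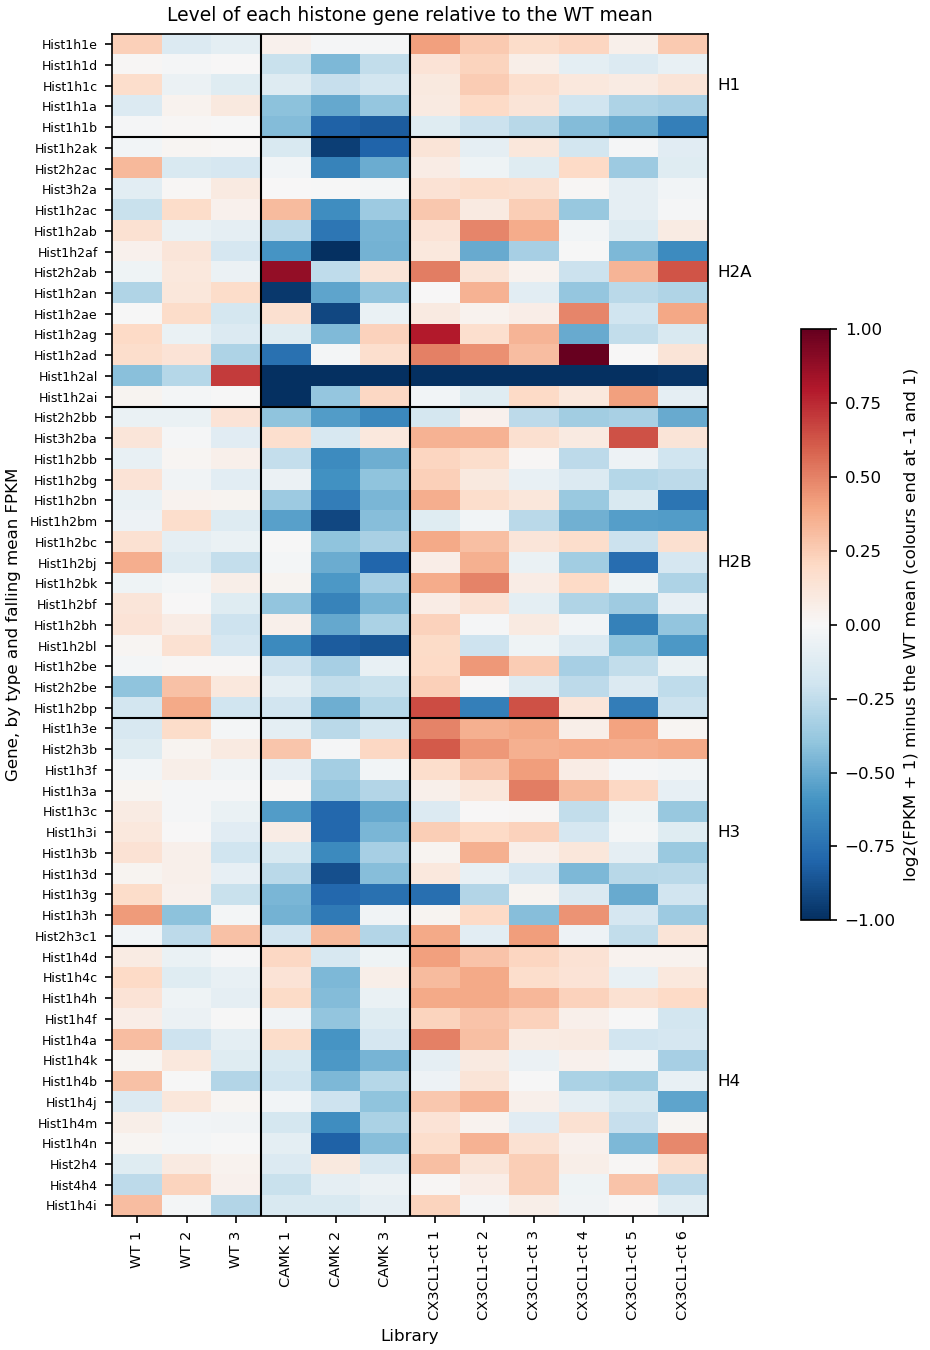
Level of each of the 57 histone genes tested (rows, by type and falling mean) in each of the 12 libraries (columns), as log2(FPKM + 1) minus the mean of the 3 WT libraries; blue is lower and red higher, and colours end at -1 and 1. CAMK 2 is the lowest library in 36 rows, and Hist1h2al is dark in every transgenic library.

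CAMK against WT compares the driver alone with no transgene, and it uses the same CAMK libraries as the comparison above. Here 52 of the 57 histone genes were lower in CAMK, against 49.4% of all genes, with a median log2 difference of -0.30 (all genes 0.00). The adjusted p passed for 2 genes, both lower (0.273% of all genes, with 0.0848% higher and 0.358% in all), and the unadjusted p for 22 lower genes (5.79%) and 0 higher ones (6.60%). In 22 genes every CAMK library lay below every WT library (8.80% of all genes), and in 0 every CAMK library lay above (9.22%). The 5 genes that were higher compare with 50.5% of all genes. The 2 genes called were Hist1h3c and Hist1h2al. With CAMK 2 left out, 17 genes were lower with an unadjusted p under 0.05 (4.64% of all genes). In that fit 0 histone genes were called (0.145% of all genes lower, 0.0364% higher).

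Hist1h3c measured 38.6, 36.1 and 34.7 FPKM in WT against the 24.3, 20.7 and 25.2 in CAMK given above. It fell by 0.62 on the log2 scale (SE 0.11, adjusted p = 0.0357), and the groups did not overlap. The adjusted p lay between 0.0773 and 0.131 when a WT or CAMK library was left out. Hist1h1b, which encodes H1.5, measured 42.1, 42.9 and 42.4 FPKM in WT and 31.2, 23.8 and 23.4 in CAMK, a difference larger than the spread in either group that missed the threshold (log2 difference -0.69, SE 0.14, adjusted p = 0.0690). Hist1h2bl measured 14.3, 15.8 and 12.5 FPKM against 8.75, 7.49 and 7.35 (log2 difference -0.78, SE 0.17, adjusted p = 0.0757). Hist2h2bb, the highest H2B gene, measured 108, 108 and 124 FPKM against 85.4, 76.2 and 72.1 (log2 difference -0.53, SE 0.12, adjusted p = 0.0886). Both H2B genes were lower in every CAMK library than in any WT library. Hist1h3g, a gene for H3.1, gave -0.66 (SE 0.18, adjusted p = 0.156), and the H4 gene Hist1h4k -0.40 (SE 0.12, adjusted p = 0.203).

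Same-numbered CAMK and WT libraries deviated together over genes (correlations 0.24, 0.16 and 0.10). The labels do not say that the numbers mark pairs, and libraries with unlike numbers were not compared in this way. With the replicate number as a block, fitted on libraries 1 to 3 of each group, 7 histone genes were lower in CAMK and 0 higher, in a fit that called 1.08% of all genes lower and 1.85% higher: Hist1h2al (adjusted p = 0.00817), Hist1h1b (0.0157), Hist1h2bl (0.0201), Hist1h3c (0.0218), Hist1h1a (0.0286), Hist1h2bf (0.0391) and Hist1h2bn (0.0423). The spread in this fit also draws on CX3CL1-ct 1 to 3, which lie close together. Their same-numbered correlations with the other groups did not all exceed 0.1. For Hist1h1b the SE was 0.08 here and 0.14 in the fit of all libraries. Without the block and with CX3CL1-ct 1 to 3 left out, 0 histone genes were called lower (0.109% of all genes).

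The 3 highest members had differences between CAMK and WT smaller than their SE. Hist1h4d measured 330, 299 and 309 FPKM in WT (mean 313 ± 16) and averaged 315 ± 42.1 in CAMK (log2 difference 0.00, SE 0.11). Hist1h4c and Hist1h4h gave log2 differences of -0.09 (SE 0.15) and -0.10 (SE 0.13). Hist1h1e gave 0.01 (SE 0.10), with 124, 95.4 and 98.1 FPKM in WT and 108, 104 and 105 in CAMK. Of the genes on chromosomes 11 and 6, Hist3h2a gave -0.01 (SE 0.08), Hist3h2ba 0.04 (SE 0.14) and Hist4h4 -0.12 (SE 0.15). The 7 Hist2h genes tested had a median of -0.07, and the 47 Hist1h genes one of -0.36. Whether the clusters differ was not tested.

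**Figure D4:**
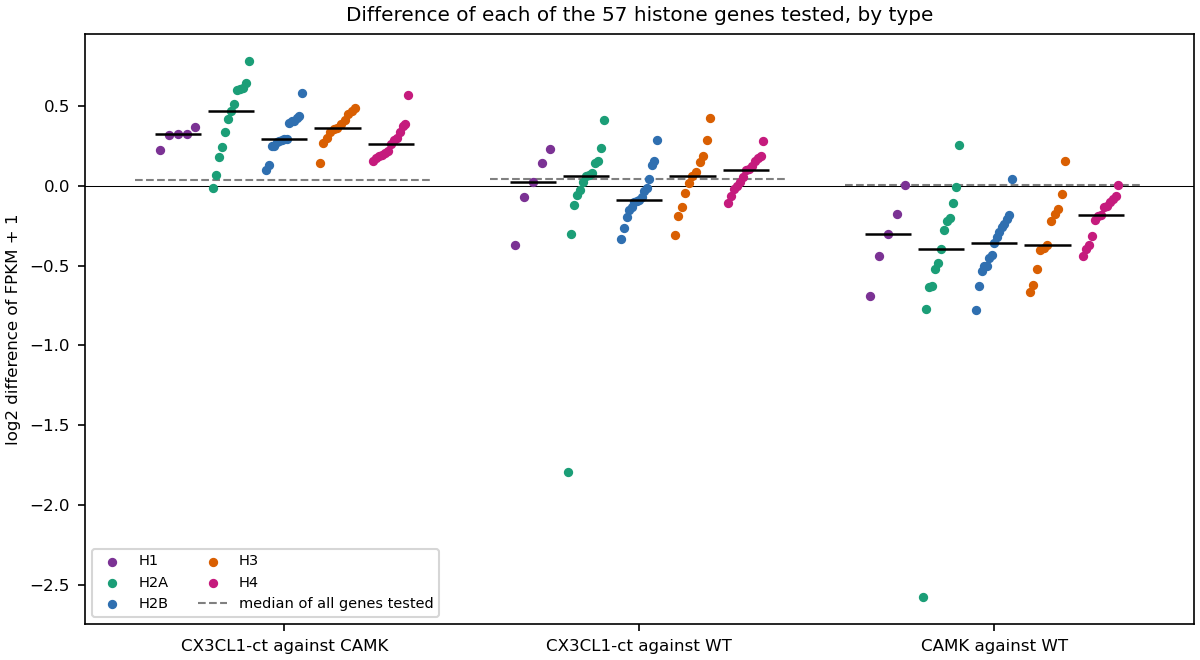
log2 difference of FPKM + 1 for each of the 57 histone genes tested in the 3 comparisons, coloured by type; black bars are medians of a type and dashed lines the median of all 16503 genes tested. Medians of the 5 types lie at 0.26 to 0.47 for CX3CL1-ct against CAMK and at -0.40 to -0.18 for CAMK against WT; the lowest point in the 2 comparisons with WT is Hist1h2al.

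CX3CL1-ct against WT compares both transgenes together with none. The histone genes were spread about 0: 32 of 57 were higher (62.7% of all genes), with a median log2 difference of 0.02 against 0.04 for all genes. The median was -0.04 with CX3CL1-ct 1 to 3 averaged and -0.10 with these left out, and 24 and 17 of the 57 genes were then higher (63.5% and 63.7% of all genes). One gene was called higher (0.200% of all genes) and 1 lower (0.254%; both directions, 0.454%), and the unadjusted p passed for 5 higher (8.80%) and 4 lower genes (3.49%). With CX3CL1-ct 1 to 3 left out these were 1 higher (5.43%) and 9 lower (2.25%). The groups did not overlap for 2 higher (4.67%) and 2 lower genes (1.38%), and 25 of 57 were below 0 (37.3%). The WT libraries are the same as in the comparison of CAMK with WT.

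Hist2h3b, on chromosome 3, encodes H3.2 and was the gene called higher. It measured 30.5, 34.1 and 35.6 FPKM in WT, 40.6, 33.0 and 38.7 in CAMK and 51.5, 45.4, 42.9, 43.5, 43.3 and 43.6 in CX3CL1-ct, above every WT library in all 6. The log2 difference was 0.42 (SE 0.08, adjusted p = 0.0478). The adjusted p rose to 0.187 with CX3CL1-ct 1 to 3 averaged and to 0.422 with them left out, where the log2 difference was 0.40 and 0.37. Hist2h3b shares 93.3% of the windows of its coding part with other genes. It is listed at chr3:96267075-96279001 (mm10) together with Hist2h2bb, which overlaps Gm42743 on the same strand in M21. Hist2h2bb had the opposite sign, with 99.8, 116, 93.9, 88.5, 90.2 and 79.3 FPKM in CX3CL1-ct (log2 difference -0.26, SE 0.10, adjusted p = 0.345).

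Hist1h2al was lower than WT in both transgenic groups. It measured 3.47, 3.89 and 8.68 FPKM in WT, was listed at 0 in all 3 CAMK libraries, and measured 1.22, 0.37, 1.05, 0, 0.37 and 2.02 in CX3CL1-ct, so WT overlapped neither group. The log2 difference of FPKM + 1 was -1.79 for CX3CL1-ct (SE 0.33, adjusted p = 0.0420) and -2.58 for CAMK (SE 0.38, adjusted p = 0.0148); with values this low its size depends on the pseudocount. Leaving out WT 3 raised the adjusted p to 0.210 and 0.0719, and with CX3CL1-ct 1 to 3 averaged the first was 0.174. The table places it at chr13:51202688-51203065, far from the other Hist1h genes, and M21 classes it as a processed pseudogene although its symbol lacks the -ps ending. No stem-loop was found in its transcript.

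**Figure D5:**
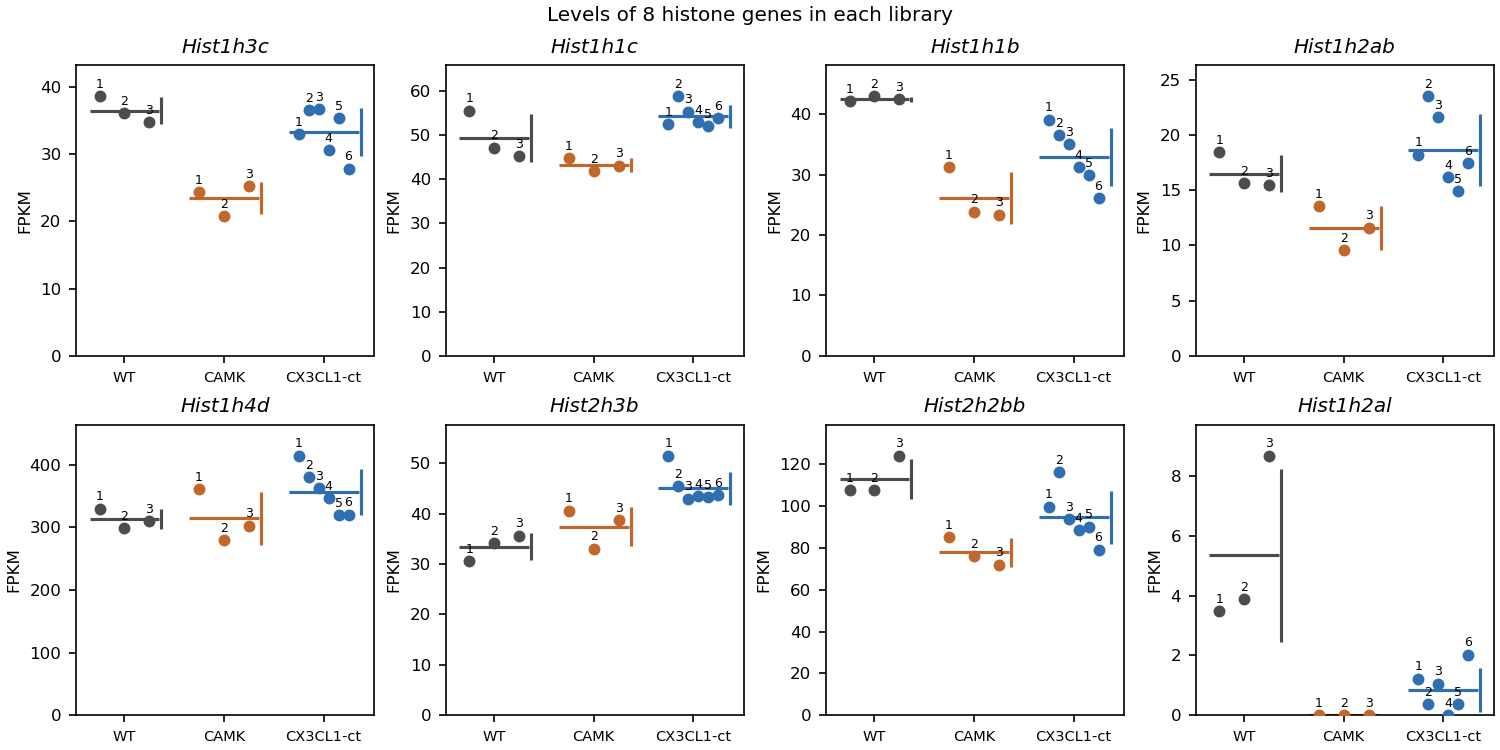
FPKM of 8 histone genes in each library, numbered by replicate; horizontal lines are group means and vertical lines ± 1 SD (n = 3 WT, 3 CAMK, 6 CX3CL1-ct). Hist1h3c, Hist1h1c and Hist1h2ab are lower in all CAMK libraries than in any CX3CL1-ct library, Hist1h4d overlaps in all groups, and Hist1h2al is listed at 0 in CAMK.

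Other members against WT stayed under the threshold. Hist1h1b gave -0.37 (SE 0.12, adjusted p = 0.243), with all 6 CX3CL1-ct libraries (26.1 to 39.1 FPKM) below the WT range. Hist1h4h measured 175, 154 and 149 FPKM in WT and 208, 207, 201, 187, 177 and 183 in CX3CL1-ct, higher in all 6 than in any WT library (log2 difference 0.28, SE 0.11, adjusted p = 0.354). Hist1h1e gave 0.23 (SE 0.09), Hist1h3e 0.29 (SE 0.11) and Hist3h2ba 0.28 (SE 0.12), and their groups overlapped. Hist1h2ad, a low H2A gene at 2.17 to 3.45 FPKM in WT, gave 0.41 (SE 0.24, adjusted p = 0.516). By type, H4 genes had a median of 0.10 and H2B genes one of -0.09.

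The same signs were found at low and at high sharing of the coding part. Over all genes tested, 63.2% were higher in CX3CL1-ct than in CAMK and 49.4% lower in CAMK than in WT. Of the 15 tested histone genes with under 20% of windows shared, 14 were higher in CX3CL1-ct than in CAMK. Of the same 15, 11 were lower in CAMK than in WT, and the medians were 0.29 and -0.19. The 28 with 20% to 80% shared gave 28 and 28 (0.34 and -0.32), and the 14 with over 80% shared gave 14 and 13 (0.38 and -0.32). The 20 tested genes with over 150 bases after the stem-loop had medians of 0.24 (CX3CL1-ct against CAMK) and -0.16 (CAMK against WT). The 19 with the stem-loop in the last 150 bases had 0.38 and -0.37, and the 18 without a stem-loop 0.38 and -0.47. These counts and medians were not tested.

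The promoters of the members hold the elements known from histone genes. RefSeq promoter windows (GRCm38.p6) were matched for 57 of the 64 genes, and the 250 bases before the start were searched on both strands for 4 motifs, none of which contains another. CCAAT was in 80.7% of the windows (34.5% of the 27025 windows of all genes), in all H1, H2A and H2B windows but in 25% of those of H4. TATAAA was in 47.4% (13% of all). The octamer ATTTGCAT, the site of Oct-1 (Pou2f1) in H2B promoters, was in 19.3% (1.61% of all), which are 6 of 16 H2A and 5 of 13 H2B windows. Windows of neighbouring genes on opposite strands can overlap, as for Hist1h2bg with Hist1h2ae and Hist1h2bk with Hist1h2ah. In these pairs the same octamer was counted for both genes. GGTCCG, the core of the H4 promoter element bound by the factor from Hinfp, was in 9 of 12 H4 windows, 1 of 13 of H2B, 1 of 10 of H3 and none of H1 and H2A (6.82% of all windows). The 110 bases before the RefSeq start of the highest gene of each type are shown to compare these layouts, with motif letters in capitals.
Hist1h1e (H1, chr13:23622559-23622668, minus strand): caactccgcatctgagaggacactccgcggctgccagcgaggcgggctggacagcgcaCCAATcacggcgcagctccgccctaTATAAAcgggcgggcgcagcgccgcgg
Hist1h2ak (H2A, chr13:21753913-21754022, minus strand): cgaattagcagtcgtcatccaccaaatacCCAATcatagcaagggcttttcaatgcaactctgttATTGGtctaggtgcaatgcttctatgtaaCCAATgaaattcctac
Hist2h2bb (H2B, chr3:96269590-96269699, plus strand): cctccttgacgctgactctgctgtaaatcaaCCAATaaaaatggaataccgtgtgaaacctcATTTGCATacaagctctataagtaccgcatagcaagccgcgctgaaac
Hist1h3e (H3, chr13:23562386-23562495, minus strand): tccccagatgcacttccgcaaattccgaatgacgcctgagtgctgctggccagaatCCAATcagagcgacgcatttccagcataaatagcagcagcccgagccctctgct
Hist1h4d (H4, chr13:23581458-23581567, plus strand): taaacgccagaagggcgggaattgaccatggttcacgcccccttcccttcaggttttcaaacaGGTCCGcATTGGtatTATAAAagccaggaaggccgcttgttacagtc
The Hist1h4d window carries GGTCCG next to an inverted CCAAT and TATAAA, and the Hist2h2bb window has CCAAT and the octamer. The median log2 difference of CX3CL1-ct against CAMK was 0.31 for the 10 tested genes with the octamer and 0.32 for the 41 without, and 0.33 with CCAAT (41 genes) and 0.24 without (10 genes). For CAMK against WT, it was -0.37 with CCAAT and -0.20 without. A match describes letters, not binding, and these medians were not tested.

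Genes that serve histone supply showed smaller median differences. For the counts in this and the following lists, 63.2% of all genes were higher in CX3CL1-ct than in CAMK. Of all genes, 49.4% were lower in CAMK than in WT and 37.3% lower in CX3CL1-ct than in WT. None of the 25 tested genes for transcription and processing of histone messages was called in any comparison; 23 were higher in CX3CL1-ct than in CAMK (median 0.08) and 15 lower in CAMK than in WT (median -0.02). Slbp, the stem-loop binding protein, measured 12.5, 13.6 and 13.2 FPKM in CAMK, 14.8, 16.1, 16, 15.3, 17.7 and 13.5 in CX3CL1-ct and 12.7, 13.2 and 15.8 in WT. Its highest CAMK value lay just above the lowest of CX3CL1-ct (log2 difference 0.23, SE 0.09, adjusted p = 0.725). Clp1, an RNA kinase of the pre-mRNA cleavage machinery, gave 0.30 (SE 0.09) and Eri1, a nuclease that trims histone messages, 0.17 (SE 0.08) in that comparison. The 19 histone chaperones, which carry histones to and from DNA, had medians of 0.08 against CAMK and, for CAMK against WT, -0.09, with 0 called. Among them Asf1b gave 0.23 (SE 0.11), and Hira (0.17, SE 0.06) and Nap1l4 (0.19, SE 0.06) had their smallest p in CX3CL1-ct against WT.

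Histone variants made outside the S phase had the same signs at the median. All 12 genes of this list were higher in CX3CL1-ct than in CAMK, with a median of 0.17 and 0 called, and 8 of 12 were lower in CAMK than in WT (median -0.13). Cenpa, the H3 variant of centromeres, measured 3.66, 4.86 and 4.16 FPKM in WT, 2.14, 2.68 and 2.79 in CAMK and 4.50, 3.59, 3.79, 3.34, 3.55 and 4.30 in CX3CL1-ct. CAMK overlapped neither group (log2 difference against WT -0.56, SE 0.12, adjusted p = 0.0783). H2afy2, a macroH2A gene, was higher in both transgenic groups by the fitted difference, with 0.37 (SE 0.11) for CX3CL1-ct and 0.30 (SE 0.13) for CAMK. H2afy, the other macroH2A gene, gave 0.20 (SE 0.06) against CAMK.

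Genes of DNA replication had the signs of the histone genes in the 2 comparisons with CAMK. Of 36 tested, 35 were higher in CX3CL1-ct than in CAMK (median 0.16) and 33 lower in CAMK than in WT (median -0.16), with 0 called. Against WT, 17 were higher and 19 lower in CX3CL1-ct (median -0.04). Uhrf1, which acts in copying DNA methylation, measured 3.97, 4.30 and 4.80 FPKM in WT, 2.91, 2.59 and 2.51 in CAMK and 4.31, 3.40, 3.66, 4.01, 2.74 and 3.06 in CX3CL1-ct. Its CAMK libraries lay below all WT libraries (log2 difference -0.54, SE 0.13, adjusted p = 0.0964). The helicase subunits Mcm2 and Mcm3 gave -0.39 (SE 0.11) and -0.35 (SE 0.12) for CAMK against WT.

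The 8 markers of dividing cells had the signs of the histone genes in CAMK. All 8 were lower in CAMK than in WT (median -0.47) and higher in CX3CL1-ct than in CAMK (median 0.24), and all 8 were lower in CX3CL1-ct than in WT (median -0.22). None was at 0 in every library. In CAMK against WT, 2 of the 8 were called lower (0.273% of all genes), Birc5 (log2 difference -0.63, SE 0.10, adjusted p = 0.0201) and Cdk1 (-0.65, SE 0.11, adjusted p = 0.0271). Of the 6 markers of intermediate progenitors and neuroblasts, 5 were lower in CAMK than in WT (median -0.51) and 5 higher in CX3CL1-ct than in CAMK (median 0.15). Of the 6 of radial glia and stem cells, 6 were lower (median -0.14) and 6 higher (median 0.20). None of these 12 was called. Against WT, 3 of 6 were higher in CX3CL1-ct in both lists, and the part of these cells in the histone results was not tested.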

How the data were processed

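RNA from hippocampus was read in 12 libraries (3 WT, 3 CAMK, 6 CX3CL1-ct), prepared with a stranded total RNA kit after removal of ribosomal RNA, per the labels' protocols. The authors deposited 1 table of FPKM values; TopHat, Bowtie, Cufflinks and Cuffdiff and the build mm10 are named in the submitters' processing notes, while versions, annotation and the treatment of fragments with several matches are not given in the sources used here. Genes that reached 1 FPKM in 3 or more libraries were tested on log2(FPKM + 1) with limma 3.58.1 (R 4.3.3; 3 group means, eBayes with trend, two-sided, Benjamini-Hochberg over 16503 genes, threshold 0.05), a procedure tested on simulated data. Folds on this scale understate changes of low genes. Sums and the depth estimate were made with Python, and sequences came from GENCODE M21 and RefSeq; 62 genes were matched by ID and 2 by symbol. Members and lists were chosen with earlier results of these data known. Named genes were those past the threshold, the 3 highest and those with the 2 smallest p per type and comparison, those of clusters 3 and 4, those listed at 0 in 1 group, those next to the filter and, of the other lists, the 3 smallest p. The GGTCCG motif was chosen after the data were seen. Same-numbered CAMK and WT libraries deviated together (correlations 0.24, 0.16 and 0.10 over genes). The rule that every correlation exceed 0.1 was not met by CX3CL1-ct, whose values were 0.11, -0.13 and -0.09 against CAMK libraries and 0.11, -0.06 and 0.01 against WT libraries.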

Additional observations from a re-analysis of the deposited data

Results flagged for a closer look

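Of 38 checks of the 6 CX3CL1-ct libraries for 1 library far from the others (sums and the members named), 1 was met, where chance flags about 1 in 20. Hist2h3b measured 51.5 FPKM in CX3CL1-ct 1 against 42.9 to 45.4 in the other 5; the gap took 0.706 of the range of the group. Without that library the log2 difference of Hist2h3b against WT was 0.38 (adjusted p = 0.0907).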

How the results depend on the processing

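Limits first: the table holds FPKM without counts, near-identical copies share fragments, groups hold 3 or 6 libraries, and depth limits members near 1 FPKM. The median of the histone genes kept its sign in every alternative for CX3CL1-ct against CAMK and for CAMK against WT, and no called gene changed sign. For CX3CL1-ct against CAMK, 0 histone genes were called higher, and 0 to 1 with a library left out. The replicate block on libraries 1 to 3 gave 6, where 0.745% of all genes were called higher. Same-numbered correlations of these 2 groups did not all exceed 0.1. The 33 with an unadjusted p under 0.05 became 20 with CX3CL1-ct 1 to 3 averaged, 13 with these left out and 16 to 37 with 1 library left out. For CX3CL1-ct against WT, the 1 gene called higher became 0 with an FPKM of at least 5, with median ratio or upper quartile scaling, with only the 2 groups fitted, with the block and with CX3CL1-ct 1 to 3 averaged or left out; the 1 called lower became 0 with a pseudocount of 0.1, an FPKM of at least 5, the 2 groups alone and CX3CL1-ct 1 to 3 averaged or left out. Each was 0 to 1 with a library left out, where 26 to 158 of all genes were called in either direction. Over the alternatives, the call of Hist2h3b held in 6 and was lost in 16. That of Hist1h2al in this comparison held in 8 and was lost in 13. The unadjusted count of 5 higher was 1 under both scalings. It was 1 with CX3CL1-ct 1 to 3 averaged (6.18% of all genes) or left out (5.43%), 15 with the block (13.1%) and 1 to 8 with a library left out. That of 4 lower was 2 with the block (7.68%), 9 with CX3CL1-ct 1 to 3 left out (2.25%) and 2 to 5 with a library left out. Genes above 0 fell from 32 to 17 with CX3CL1-ct 1 to 3 left out. For CAMK against WT, the 2 called lower were 1 with an FPKM of at least 5 and with the 2 groups alone. They were 1 with CX3CL1-ct 1 to 3 averaged (0.139% of all genes), 0 with these left out (0.109%) and 7 with the block (1.08%). With a library left out they were 0 to 5, where 21 to 153 of all genes were called in either direction. Genes above 0 were 5, and 9 without a filter, 3 with upper quartile scaling and 3 to 10 with a library left out; an unadjusted p under 0.05 and higher was met by 0 to 1. The alternatives of averaging and leaving out CX3CL1-ct 1 to 3, were chosen after seeing the data. Apart from a smaller number of genes or libraries, the cause was not tested.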
